A study of Homo sapiens with 11 samples.

Results

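The genes described here encode BET bromodomain proteins (BRD2 and BRD3), the elongation kinase P-TEFb (CDK9, CCNT1 and CCNT2), proteins that hold P-TEFb inactive (HEXIM1 and LARP7) and the histone acetyltransferases p300 and CBP (EP300 and CREBBP). They were taken by symbol, through their Ensembl identifiers, from a gene count table made by paired-end RNA sequencing. All 9 were among the 18908 genes kept for testing, of 58037 identifiers in the table. RNA came from 11 libraries of OCI-AML3, an established human acute myeloid leukaemia line, and OCI-AML3-FLT3-ITD, whose name refers to an internal tandem duplication in the receptor kinase gene FLT3 (here also the FLT3-ITD line). The groups were OCI-AML3-FLT3-ITD with 100 nM FHD-286 for 16 h (n = 2), OCI-AML3-FLT3-ITD control (n = 3), OCI-AML3 with 100 nM FHD-286 for 16 h (n = 3) and OCI-AML3 control (n = 3). FHD-286 inhibits the catalytic subunits BRG1 and BRM of BAF chromatin remodellers. The labels do not say how the duplication was introduced, whether the FLT3-ITD line is a single clone, whether controls received vehicle, or whether replicates were separate cultures. The p-values below therefore measure the spread between libraries, which may be technical.

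RNA polymerase II pauses soon after it starts a gene, and P-TEFb, a pair of CDK9 and a cyclin T, phosphorylates the polymerase and its pausing factors to release it. Much of the cell's P-TEFb is held inactive in a particle of the 7SK RNA, which LARP7 and MEPCE stabilise and in which HEXIM1 inhibits the kinase. BET proteins bind acetylated histones, which p300 and CBP acetylate at enhancers, and BET inhibitors are known to raise HEXIM1 RNA and lower MYC RNA in leukaemia cells.

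Total counts ran from 58397190 to 79172389 per library. Of the marker lists, summed myeloid markers (PTPRC, CD33, MPO, SPI1, LYZ and CSF3R) were at 430.1 to 457 normalised CPM (read counts relative to library size) in OCI-AML3-FLT3-ITD with FHD-286, against 886 to 954 CPM in its control. They were at 484 to 519.9 CPM in OCI-AML3 with FHD-286, against 914 to 937 CPM in its control. The sums were lower with FHD-286 in both lines, but the markers did not move alike. SPI1 was at 23.1 and 24.1 CPM in OCI-AML3-FLT3-ITD with FHD-286, against 271 to 316 CPM in its control, and at 42.2 to 49.1 CPM in OCI-AML3 with FHD-286, against 303 to 345 CPM in its control. PTPRC was at 326 and 353 CPM in OCI-AML3-FLT3-ITD with FHD-286, within the 313 to 419 CPM of its control, and at 364 to 384 CPM in OCI-AML3 with FHD-286, above the 256 to 289 CPM of its control. The part of these markers in the results on the members was not tested. The lymphoid markers and the erythroid and megakaryocyte markers stayed below 2 CPM per list in every library, with CD3E, HBB and PF4 at 0, and the 6 stromal and epithelial markers summed to 4.82 to 31.1 CPM, of which PECAM1 made up 4.78 to 31.0 CPM. The library labelled replicate 2 of the OCI-AML3-FLT3-ITD control stood apart from its group. FLT3 was at 171 and 169 CPM in OCI-AML3-FLT3-ITD with FHD-286 and at 178, 53.4 and 203 CPM in control replicates 1, 2 and 3. In OCI-AML3, FLT3 was at 39.2 to 43.1 CPM with FHD-286 and at 41.1 to 43.3 CPM in control. Across genes, its correlation was 0.957 and 0.960 with replicates 1 and 3 of its own group and 0.979 to 0.984 with OCI-AML3 controls. Mitochondrial genes took 8.85% of its counts. In the other libraries they took 5.13% and 4.91% in OCI-AML3-FLT3-ITD with FHD-286, against 4.82% and 4.48% in its control, and 6.29% to 7.54% in OCI-AML3 with FHD-286, against 5.07% to 6.13% in its control. In OCI-AML3 the mitochondrial share was thus higher with FHD-286 without overlap. The same held in OCI-AML3-FLT3-ITD with control replicate 2, at 8.85%, set aside. The part of the mitochondrial share in the results of either line was not tested. The library labelled replicate 2 of the OCI-AML3-FLT3-ITD control was kept under its label, and results are given with and without it. All values are from bulk RNA, in which fewer cells that express a gene and less of its RNA per cell cannot be told apart.

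HEXIM1 (ENSG00000186834, chr17:45148502-45152101, plus strand) and BRD2 (ENSG00000204256, chr6:32968660-32981505, plus strand) were the members that passed the test in both lines, and their upstream sequences are shown for that reason. Coordinates of genes are on GRCh38 with GENCODE 29. HEXIM1 is annotated with 1 exon of 3600 bases, and BRD2 with 18 merged exons over 7337 bases. The 250 bases before each gene's first RefSeq start (GRCh38.p14) are chr17:45148225-45148474 for HEXIM1 and chr6:32968344-32968593 for BRD2. They are written 5′ to 3′ on the gene's strand, with motif letters in capitals.
HEXIM1: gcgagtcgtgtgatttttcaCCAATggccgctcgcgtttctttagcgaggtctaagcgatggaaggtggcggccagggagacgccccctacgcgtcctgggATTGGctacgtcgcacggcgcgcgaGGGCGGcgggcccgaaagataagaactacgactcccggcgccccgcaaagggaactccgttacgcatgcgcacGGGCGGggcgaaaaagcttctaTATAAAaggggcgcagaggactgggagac
BRD2: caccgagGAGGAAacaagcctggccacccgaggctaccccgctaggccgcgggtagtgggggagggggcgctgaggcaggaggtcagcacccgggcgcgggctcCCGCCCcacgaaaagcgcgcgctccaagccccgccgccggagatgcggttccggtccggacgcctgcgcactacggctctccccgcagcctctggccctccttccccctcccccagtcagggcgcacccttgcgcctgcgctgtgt
In the HEXIM1 window the capitals mark, from left to right, a CCAAT box, a second CCAAT box on the other strand, 2 GC boxes (GGGCGG, the motif of SP1) and a TATA box (TATAAA) that begins 29 bases before the start. In the BRD2 window they mark GAGGAA, the core letters of the PU.1 motif, and a GC box on the other strand. Both strands were searched for 8 motifs, and no matches overlapped in these 2 windows. Among 35116 RefSeq windows of this length, TATAAA was in 10.7%, CCAAT in 32%, GGGCGG in 42.6% and GAGGAA in 23.6%. The motifs searched and not found in either window were CACGTG (6.34% of windows), TGACGTCA (1.65%), CCGGAAGT (3.42%) and the NRF1 site (1.03%). The 9 members had 15 such windows, and the HEXIM1 window was the only one of them with TATAAA. These are matches of letters, and binding was not measured.

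The other members lie at chr9:134030305-134068535 (BRD3, minus strand), chr9:127785679-127790787 (CDK9, plus strand), chr12:48688458-48716998 (CCNT1, minus strand), chr2:134918235-134959342 (CCNT2, plus strand), chr4:112636964-112657592 (LARP7, plus strand), chr22:41091786-41180079 (EP300, plus strand) and chr16:3725054-3880726 (CREBBP, minus strand). The strand setting of the counting is unknown here, and reads of overlapping genes cannot be told apart. Exon overlap with another gene was above 10% of exon length for 3 members. BRD3 shared 18.6% with its antisense neighbour BRD3OS, which was itself counted at 31.7 to 46.7 CPM. HEXIM1 shared 14.4% with HEXIM2-AS1, counted at 0 to 0.234 CPM. BRD2 shared 11.9% with HLA-DMA and with a pair of genes that have no symbol, whose counts are not given here. HLA-DMA, which shared the fewest bases of these genes, was counted at 0.347 to 1.10 CPM.

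Set between genes per kilobase of exon, BRD2 had the highest mean level of the members in all 4 groups, and CCNT2 the lowest. BRD2 averaged 69.5 and 51.5 CPM per kb in OCI-AML3-FLT3-ITD with FHD-286 and in control, and 71.1 and 59.7 CPM per kb in OCI-AML3 with FHD-286 and in control. CCNT2 averaged 4.10 and 3.42 CPM per kb in OCI-AML3-FLT3-ITD with FHD-286 and in control, and 4.78 and 3.51 CPM per kb in OCI-AML3 with FHD-286 and in control. HEXIM1 ranked 3rd in OCI-AML3-FLT3-ITD with FHD-286, at 23.3 CPM per kb, against 7th in its control, at 9.97 CPM per kb. It ranked 2nd in OCI-AML3 with FHD-286, at 34.9 CPM per kb, against 4th in its control, at 13.5 CPM per kb. LARP7 ranked 7th in OCI-AML3 with FHD-286, against 3rd in its control. CDK9 was 2nd or 3rd in every group, at 23.2 to 26.2 CPM per kb.

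**Figure D1:**
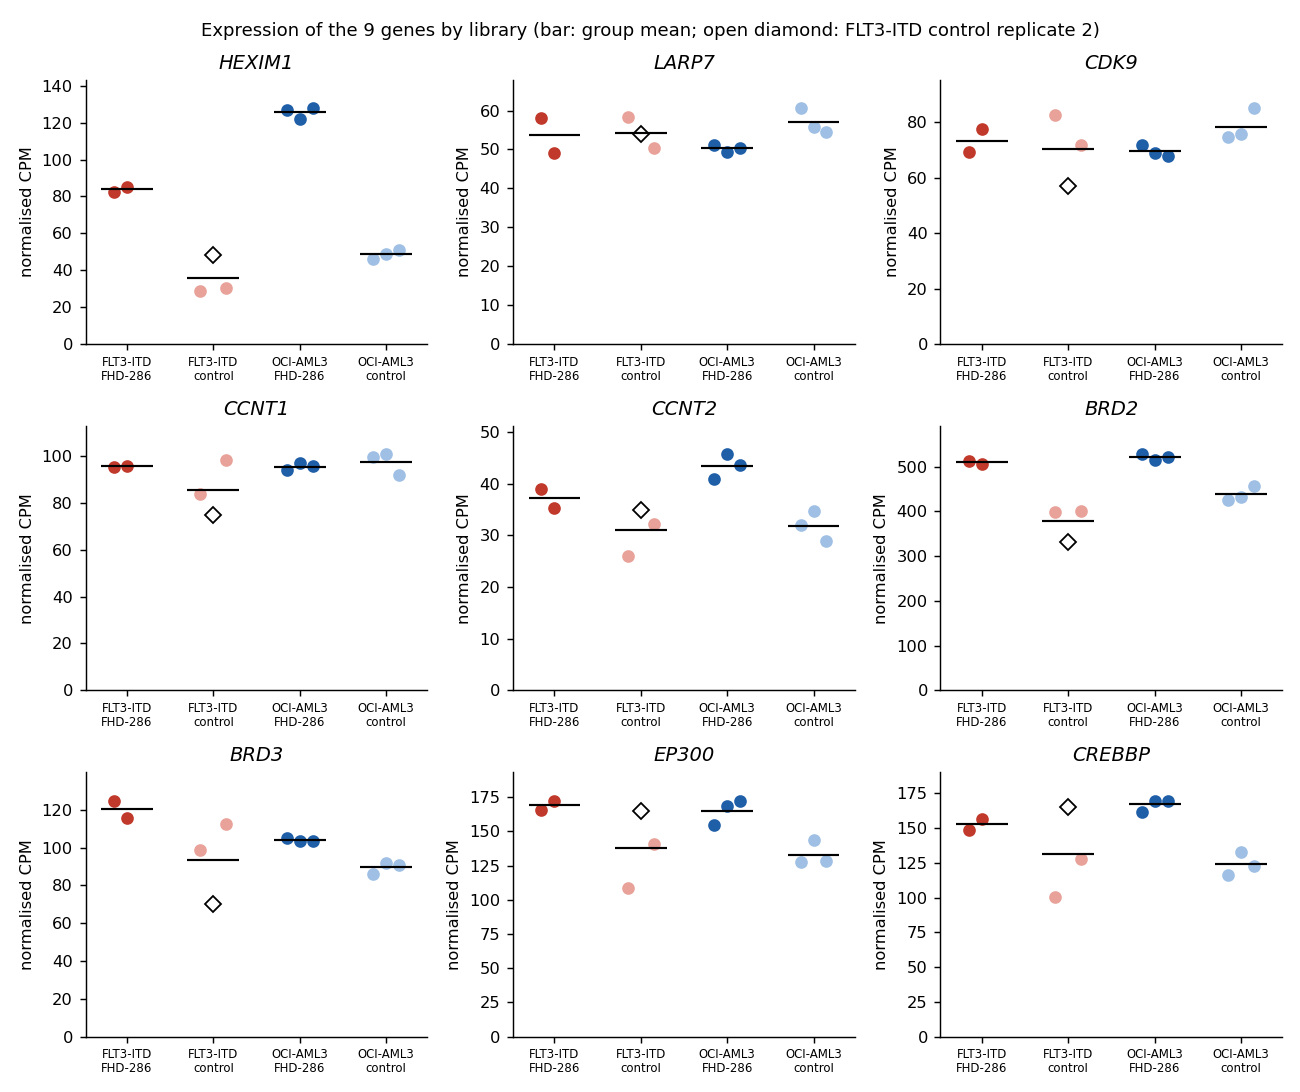
Normalised CPM of each of the 9 genes (vertical axes) in each library, by group of line and treatment, with points for libraries, bars for group means and the library labelled replicate 2 of the OCI-AML3-FLT3-ITD control marked apart. HEXIM1 lies at 82.5 to 85.1 CPM in OCI-AML3-FLT3-ITD with FHD-286 against 28.8 to 48.4 CPM in control, and at 122 to 128 CPM in OCI-AML3 with FHD-286 against 46.1 to 51.2 CPM in control.

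The first question was what 16 h of FHD-286 did to these genes in each line. HEXIM1 and BRD2 rose in both lines, CCNT2 and CREBBP also passed the test in OCI-AML3, and no member was called lower with all libraries in the fit. In the FLT3-ITD line, 2 of 9 members were called higher and 0 lower by edgeR's quasi-likelihood test (p-values adjusted by Benjamini-Hochberg over all genes), where 30.5% of genes were called (15.6% higher, 14.9% lower). In OCI-AML3, 4 of 9 were called higher and 0 lower, where 41.3% of genes were called (19.8% higher, 21.5% lower). The median log2 fold change of the members was 0.26 in the FLT3-ITD line, against −0.02 over all genes, and 0.25 in OCI-AML3, against 0.01 over all genes. Without the library labelled replicate 2 of the OCI-AML3-FLT3-ITD control, 6 of 9 members were called higher and 0 lower in the FLT3-ITD line, with 49% of genes called (24.8% higher, 24.2% lower). In OCI-AML3 that fit called 6 of 9 higher and 2 lower, with 58.8% of genes called (29% higher, 29.8% lower). Leaving that library out lowered the common biological coefficient of variation to 0.0652, from 0.193 with it.

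Library scaling moves these splits. Over all genes, the FLT3-ITD line had 2957 called higher and 2810 lower, but 4032 and 2254 when scaled by library totals, and OCI-AML3 had 3742 higher and 4074 lower, but 5161 and 3025 by library totals. That scaling moved the median log2 fold change of all genes to 0.09 in the FLT3-ITD line and to 0.17 in OCI-AML3. By it 3 members were called higher in the FLT3-ITD line, where 21.3% of genes were, and 6 in OCI-AML3, where 27.3% of genes were. BRD3 was added in both lines and EP300 in OCI-AML3, with log2 fold changes of 0.47 for BRD3 in the FLT3-ITD line and of 0.37 for BRD3 and 0.47 for EP300 in OCI-AML3. In a fit of only the groups compared, 1 member was called in the FLT3-ITD line, where 8.95% of genes were, and 8 in OCI-AML3, where 67.2% of genes were.

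HEXIM1, the inhibitor subunit, had the largest fold change of the members in both lines. It had 82.5 and 85.1 CPM in OCI-AML3-FLT3-ITD with FHD-286, against 28.8, 48.4 and 30.5 CPM in control replicates 1, 2 and 3. It had 127, 122 and 128 CPM in OCI-AML3 with FHD-286, against 46.1, 48.6 and 51.2 CPM in control. Treated and control libraries did not overlap in either line, and the FLT3-ITD control of 48.4 CPM, replicate 2, lay within the range of the OCI-AML3 controls. The rise was 2.33-fold in the FLT3-ITD line (log2 1.22, SE 0.18, adjusted p = 0.00053 by edgeR's quasi-likelihood test) and 2.58-fold in OCI-AML3 (log2 1.37, SE 0.16, adjusted p = 8.1e-05). Of the 18908 genes, 864 had a higher log2 fold change than HEXIM1 in the FLT3-ITD line and 1273 in OCI-AML3. Without replicate 2 the rise in the FLT3-ITD line was 2.82-fold (log2 1.5, SE 0.07, edgeR adjusted p = 9.9e-13). Leaving out each library in turn kept HEXIM1 called in both lines, at log2 1.09 to 1.5 in the FLT3-ITD line and 1.33 to 1.41 in OCI-AML3.

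LARP7, which holds the 7SK particle together, was not called in either line with all libraries. It had 58.2 and 49.2 CPM in OCI-AML3-FLT3-ITD with FHD-286, against 58.5, 54.0 and 50.3 CPM in control, and the groups overlapped. The log2 fold change there was −0.02 (SE 0.09, edgeR adjusted p = 0.922), and scaling by library totals turned it to 0.09. It had 51.2, 49.4 and 50.4 CPM in OCI-AML3 with FHD-286, against 60.6, 55.8 and 54.5 CPM in control. These groups did not overlap, but the log2 fold change of −0.18 (SE 0.08) missed the threshold at an edgeR adjusted p of 0.112. The fold change of LARP7 in OCI-AML3 was called lower without the library that stood apart (edgeR adjusted p = 0.038) and in a fit of only the groups compared (0.0068).

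Among the subunits of P-TEFb, CCNT2 was called in OCI-AML3, and CDK9 and CCNT1 in neither line with all libraries. CCNT2, a cyclin T that partners CDK9, had 39.1 and 35.3 CPM in OCI-AML3-FLT3-ITD with FHD-286, against 26.0, 34.9 and 32.3 CPM in control. It had 40.9, 45.7 and 43.6 CPM in OCI-AML3 with FHD-286, against 31.9, 34.8 and 28.9 CPM in control. The groups did not overlap in either line, by a margin of under 1 CPM in the FLT3-ITD line. CCNT2 rose 1.36-fold in OCI-AML3 (log2 0.44, SE 0.11, edgeR adjusted p = 0.0096), also without any one library. In the FLT3-ITD line its log2 fold change of 0.26 (SE 0.13) was not called, at an adjusted p of 0.146. Without control replicate 2 it was 0.35 and called, at an edgeR adjusted p of 0.0064.

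CDK9, the kinase itself, had 69.4 and 77.5 CPM in OCI-AML3-FLT3-ITD with FHD-286, against 82.8, 57.2 and 71.8 CPM in control. The groups overlapped, the log2 fold change was 0.06 (SE 0.13, edgeR adjusted p = 0.784), and without control replicate 2, the library at 57.2 CPM, it was −0.07. CDK9 had 71.8, 69.0 and 67.9 CPM in OCI-AML3 with FHD-286, against 74.6, 75.7 and 85.2 CPM in control. The groups lay apart there, at a log2 fold change of −0.17 (SE 0.12, edgeR adjusted p = 0.268), which was called lower only without the library that stood apart (adjusted p = 0.036) and in a fit of only the groups compared (0.011).

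CCNT1, the cyclin T of most P-TEFb in many cell types, overlapped between treatment and control in both lines. It had 95.5 and 95.8 CPM in OCI-AML3-FLT3-ITD with FHD-286, against 83.7, 74.8 and 98.4 CPM in control. It had 94.0, 96.9 and 95.7 CPM in OCI-AML3 with FHD-286, against 99.6, 101 and 92.1 CPM in control. The treated libraries of both lines lay within 94.0 to 96.9 CPM, and the controls spread more widely. Its log2 fold changes were 0.16 (SE 0.10, edgeR adjusted p = 0.261) in the FLT3-ITD line and −0.03 (SE 0.09, adjusted p = 0.827) in OCI-AML3. The OCI-AML3 value was 0.04 with upper-quartile scaling, 0.12 by library totals and 0.01 with no filter or a stricter one. Without control replicate 3, the highest FLT3-ITD control, CCNT1 was called higher in that line at log2 0.27 (edgeR adjusted p = 0.028).

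The BET gene BRD2, whose protein binds acetylated histone H4, was the more abundant of its pair and rose in both lines. It had 513 and 507 CPM in OCI-AML3-FLT3-ITD with FHD-286, against 399.9, 333 and 401 CPM in control. It had 528, 515 and 521 CPM in OCI-AML3 with FHD-286, against 427, 431 and 457 CPM in control. All 5 treated libraries lay above all 6 controls. The rise was 1.35-fold in the FLT3-ITD line (log2 0.43, SE 0.09, edgeR adjusted p = 0.0042) and 1.19-fold in OCI-AML3 (log2 0.25, SE 0.08, adjusted p = 0.027). Without control replicate 2, the lowest control, the FLT3-ITD value was 1.27-fold, at an edgeR adjusted p of 0.00022. In OCI-AML3 the call was lost without control replicate 1 or 2 or FHD-286 replicate 1 or 2, with adjusted p up to 0.094, and in the FLT3-ITD line it was lost in a fit of only the groups compared (adjusted p = 0.095).

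BRD3, its paralogue, was not called in either line with all libraries. It had 125 and 116 CPM in OCI-AML3-FLT3-ITD with FHD-286, against 98.4, 69.9 and 112 CPM in control. It had 105, 104 and 103 CPM in OCI-AML3 with FHD-286, against 86.2, 91.8 and 90.9 CPM in control. The groups did not overlap in either line. The log2 fold changes were 0.36 (SE 0.15, edgeR adjusted p = 0.095) in the FLT3-ITD line and 0.22 (SE 0.14, adjusted p = 0.234) in OCI-AML3. Without the library that stood apart, which held the lowest BRD3 of all, they were 0.19 in the FLT3-ITD line and 0.22 in OCI-AML3, and both were called (edgeR adjusted p = 0.040 in the FLT3-ITD line and 0.0045 in OCI-AML3). In the FLT3-ITD line BRD3 was also called without control replicate 3, at 0.51. BRD3OS, with which BRD3 shares exon length, averaged 42.2 CPM in OCI-AML3-FLT3-ITD with FHD-286, against 34.5 CPM in control, and 46.4 CPM in OCI-AML3 with FHD-286, against 40.3 CPM in control, and its part in the BRD3 counts was not tested.

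EP300 and CREBBP encode acetyltransferases that are recruited by many transcription factors and mark active enhancers. EP300 had 166 and 172 CPM in OCI-AML3-FLT3-ITD with FHD-286, against 108, 165 and 141 CPM in control. It had 155, 169 and 172 CPM in OCI-AML3 with FHD-286, against 127, 143 and 128 CPM in control. The groups lay apart in both lines, by under 1 CPM in the FLT3-ITD line, where the highest control was replicate 2. EP300 was not called in either line, at log2 0.29 (SE 0.14, edgeR adjusted p = 0.144) in the FLT3-ITD line and 0.31 (SE 0.13, adjusted p = 0.074) in OCI-AML3. Without control replicate 2 it was called in both, at 0.44 (edgeR adjusted p = 0.00069) and 0.31 (adjusted p = 0.0018), and without control replicate 1 of the FLT3-ITD line it was called in OCI-AML3 (adjusted p = 0.0097).

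CREBBP had 149 and 157 CPM in OCI-AML3-FLT3-ITD with FHD-286, against 100.2, 165 and 128 CPM in control. It had 162, 169.8 and 169.6 CPM in OCI-AML3 with FHD-286, against 116, 133 and 122 CPM in control. The OCI-AML3 groups lay apart, and in the FLT3-ITD line control replicate 2 lay above both treated libraries. CREBBP rose 1.35-fold in OCI-AML3 (log2 0.43, SE 0.14, edgeR adjusted p = 0.033), a call that was lost without any one of the 6 OCI-AML3 libraries, at adjusted p of 0.050 to 0.110. In the FLT3-ITD line its log2 fold change was 0.22 (SE 0.16, edgeR adjusted p = 0.327), and without control replicate 2 it was 0.42 and called (adjusted p = 0.00068).

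**Figure D2:**
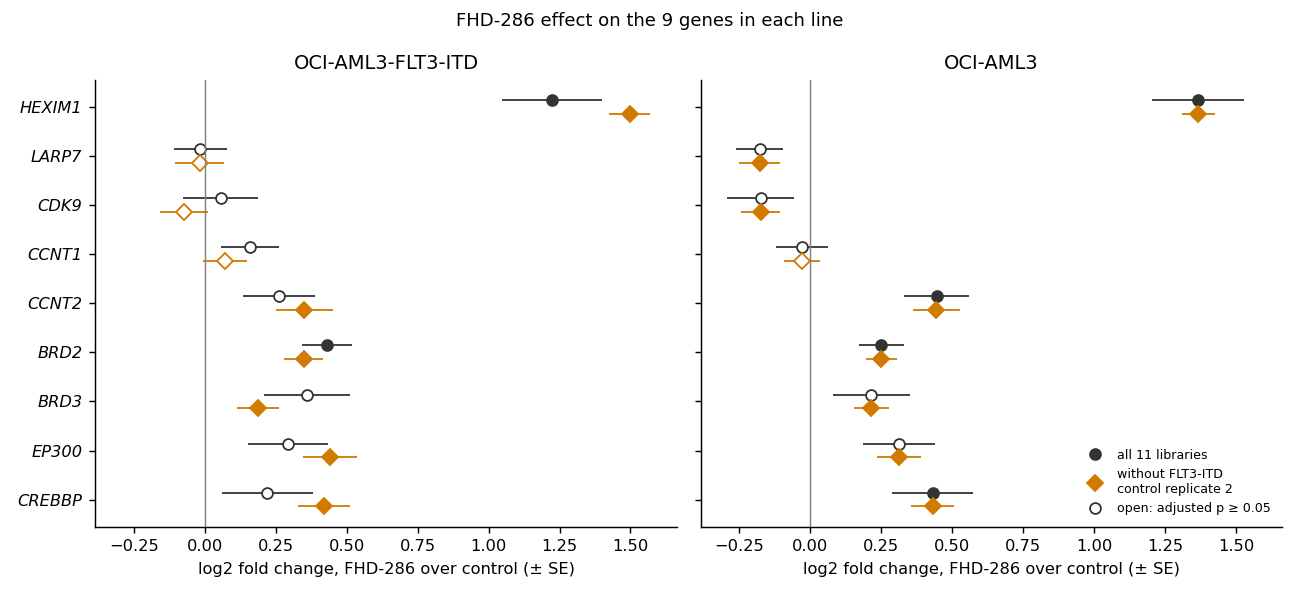
Log2 fold change of each of the 9 genes, FHD-286 over control, in OCI-AML3-FLT3-ITD and in OCI-AML3, with lines of 1 SE and open symbols where the adjusted p was not under 0.05, from the fit with all libraries and from the fit without the library labelled replicate 2 of the OCI-AML3-FLT3-ITD control. HEXIM1 stands at 1.22 and 1.5 in the FLT3-ITD line and at 1.37 in OCI-AML3, while the other 8 genes lie between −0.18 and 0.44 in both fits.

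Counting ranges rather than calls, treated and control libraries did not overlap for 5 of 9 members in the FLT3-ITD line, where this held for 49% of all genes, and for 8 of 9 in OCI-AML3, where it held for 66%. Without control replicate 2 it was 6 of 9 in the FLT3-ITD line, against 69.7% of all genes. CCNT1 was the member whose groups overlapped in OCI-AML3. In both lines the ranges that lay apart included those of HEXIM1, BRD2, BRD3, CCNT2 and EP300.

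The second question was whether the lines differed in their response. None of the 9 members was called for a difference of the FHD-286 effect between the lines, where 3.36% of all genes were called by edgeR's quasi-likelihood test, and none had an unadjusted p below 0.05 in that test. By the Wald test of DESeq2 0 of 9 were called as well, where 7.76% of genes were. That share is of all 18908 genes, of which 4505 had no adjusted p in that test and could not be called. Over all genes the edgeR split was 375 higher and 260 lower, but 308 and 374 with upper-quartile scaling, which moved the median of all genes to −0.11. The differences, FLT3-ITD minus OCI-AML3 on the log2 scale, ran from −0.21 (SE 0.22) for CREBBP to 0.23 (SE 0.18) for CDK9, and that of HEXIM1 was −0.14 (SE 0.24, edgeR adjusted p = 0.786). With errors of this size, these tests do not show that the lines respond alike. Without control replicate 2 the difference for HEXIM1 was 0.13 (SE 0.09, adjusted p = 0.400), again 0 of 9 were called, and 17% of all genes were called.

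The third question was how the lines differed at rest and under treatment. Between controls, 0 of 9 members were called, where 28% of genes were (14.5% higher, 13.5% lower). Over all genes that split was 2738 higher and 2551 lower, but 3457 and 1648 by library totals and 3282 and 1957 with upper-quartile scaling. The nearest were HEXIM1, at 35.9 ± 10.8 CPM in OCI-AML3-FLT3-ITD control and 48.7 ± 2.56 CPM in OCI-AML3 control (SD, n = 3 each), and BRD2, at 378 ± 39.1 CPM in OCI-AML3-FLT3-ITD control and 438 ± 16.5 CPM in OCI-AML3 control. The log2 fold changes, FLT3-ITD over OCI-AML3, were −0.44 (SE 0.16, edgeR adjusted p = 0.065) for HEXIM1 and −0.21 (SE 0.08, adjusted p = 0.068) for BRD2, and the Wald test of DESeq2 called both (adjusted p = 0.046 for HEXIM1 and 0.047 for BRD2), where 31.3% of genes were called. Ranges of the controls lay apart for BRD2 alone among the members, against 36.9% of all genes. These 2, HEXIM1 and BRD2, were also the members with an unadjusted p below 0.05. Without control replicate 2, HEXIM1 in the FLT3-ITD line was at 28.8 and 30.5 CPM, below all OCI-AML3 controls, and was called at −0.71 (SE 0.07, edgeR adjusted p = 2.1e-08), where 49.4% of genes were called. In that fit BRD3 was called higher in the FLT3-ITD controls, at 0.23 (adjusted p = 0.0067). BRD2 averaged 400.6 CPM in the FLT3-ITD controls without replicate 2, against 438 CPM in OCI-AML3 control. It was not called between controls without any one of the 11 libraries, at log2 −0.26 to −0.13 (edgeR adjusted p of 0.051 to 0.191). Without control replicate 3 of the FLT3-ITD line, CCNT1 was called lower there, at −0.30 (adjusted p = 0.023).

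Between treated cells, HEXIM1 was the 1 member called, where 26% of genes were (14.3% higher, 11.7% lower). Ranges of the treated groups lay apart for 5 of 9 members, against 66.2% of all genes. It was lower in the FLT3-ITD line, at 83.8 ± 1.82 CPM (SD, n = 2) in OCI-AML3-FLT3-ITD with FHD-286 and 126 ± 3.26 CPM (n = 3) in OCI-AML3 with FHD-286. The log2 fold change was −0.58 (SE 0.18, edgeR adjusted p = 0.037), and without control replicate 2 of the FLT3-ITD line the adjusted p was 2.0e-07 for the same value, where 46.9% of genes were called. The call was lost by library totals (adjusted p = 0.057, with 25.9% of genes called), and without any one of the 6 OCI-AML3 libraries or either treated FLT3-ITD library (adjusted p up to 0.178). BRD3 was at 120.2 ± 6.54 CPM (n = 2) in OCI-AML3-FLT3-ITD with FHD-286 and 104 ± 0.906 CPM (n = 3) in OCI-AML3 with FHD-286, and was called, at log2 0.21 (edgeR adjusted p = 0.015), only without control replicate 2 or in a fit of the 2 treated groups alone, which called 4 members and 53.6% of genes.

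Ordered by mean CPM with all libraries, HEXIM1, BRD2, CCNT2 and CREBBP were highest in OCI-AML3 with FHD-286. OCI-AML3-FLT3-ITD with FHD-286 followed for these genes, with ranges that did not overlap. BRD3 and EP300 were highest in OCI-AML3-FLT3-ITD with FHD-286, followed by OCI-AML3 with FHD-286, with overlapping ranges for EP300. CDK9, CCNT1 and LARP7 were highest in OCI-AML3 control, and every neighbouring pair of groups overlapped for these 3 genes. The lowest place was taken by OCI-AML3-FLT3-ITD control for BRD2, HEXIM1, CCNT1 and CCNT2, by OCI-AML3 control for BRD3, EP300 and CREBBP, and by OCI-AML3 with FHD-286 for CDK9 and LARP7. Of the lowest pairs, the ranges lay apart for BRD2 and overlapped for the other 8 members. Without control replicate 2, OCI-AML3-FLT3-ITD control averaged 124.5 CPM for EP300 and 114 CPM for CREBBP. Both values were below OCI-AML3 control, at 133 CPM for EP300 and 124 CPM for CREBBP. BRD3 averaged 105.4 CPM in that reduced control, above 104.1 CPM in OCI-AML3 with FHD-286. HEXIM1 was at 28.8 and 30.5 CPM in it, below the 46.1 to 51.2 CPM of OCI-AML3 control.

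Ratios within a library do not depend on its scaling. HEXIM1 per kb was 0.991 and 0.915 of CDK9 per kb in OCI-AML3-FLT3-ITD with FHD-286, against 0.290, 0.705 and 0.354 in control replicates 1, 2 and 3. It was 1.47, 1.47 and 1.57 of CDK9 in OCI-AML3 with FHD-286, against 0.515, 0.536 and 0.501 in control. HEXIM1 RNA per kb thus exceeded that of CDK9 in treated OCI-AML3 libraries and stayed below it in the libraries of the other 3 groups. That order rests on merged exon lengths, and the lengths of the expressed transcripts were not measured. The groups did not overlap in either line, at two-sided exact permutation p of 0.2 in the FLT3-ITD line and 0.1 in OCI-AML3, the smallest that these group sizes allow. Over the 24 ratio comparisons made, the lowest Benjamini-Hochberg adjusted p of the exact permutation tests was 0.32.

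The paired genes kept their proportion more closely. BRD2 per kb was 3.98 ± 0.185 times BRD3 per kb in OCI-AML3-FLT3-ITD with FHD-286 and 3.87 ± 0.561 times in control, and 4.70 ± 0.0347 times in OCI-AML3 with FHD-286 and 4.58 ± 0.163 times in control. CREBBP per kb was 0.728 ± 0.00665 of EP300 per kb in OCI-AML3-FLT3-ITD with FHD-286 and 0.762 ± 0.0395 in control, with overlapping ranges. It was 0.817 ± 0.0228 of EP300 in OCI-AML3 with FHD-286 and 0.751 ± 0.0171 in control, with ranges apart (exact permutation p = 0.1). CCNT2 per kb was 0.316 ± 0.0232 of CCNT1 per kb in OCI-AML3-FLT3-ITD with FHD-286 and 0.299 ± 0.0696 in control, again overlapping. It was 0.369 ± 0.0150 of CCNT1 in OCI-AML3 with FHD-286 and 0.265 ± 0.0133 in control, with ranges apart (exact permutation p = 0.1). All errors of ratios are SD over the libraries of a group, of which treated FLT3-ITD has 2 and the other groups 3. Without control replicate 2, the FLT3-ITD control (n = 2) was at 0.259 ± 0.0101 for CCNT2 to CCNT1 and 3.58 ± 0.327 for BRD2 to BRD3. Treated and control ranges of both ratios then lay apart in that line, at an exact permutation p of 0.333, the smallest possible. For CREBBP to EP300 that control was at 0.740 ± 0.00939, and the ranges still overlapped.

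**Figure D3:**
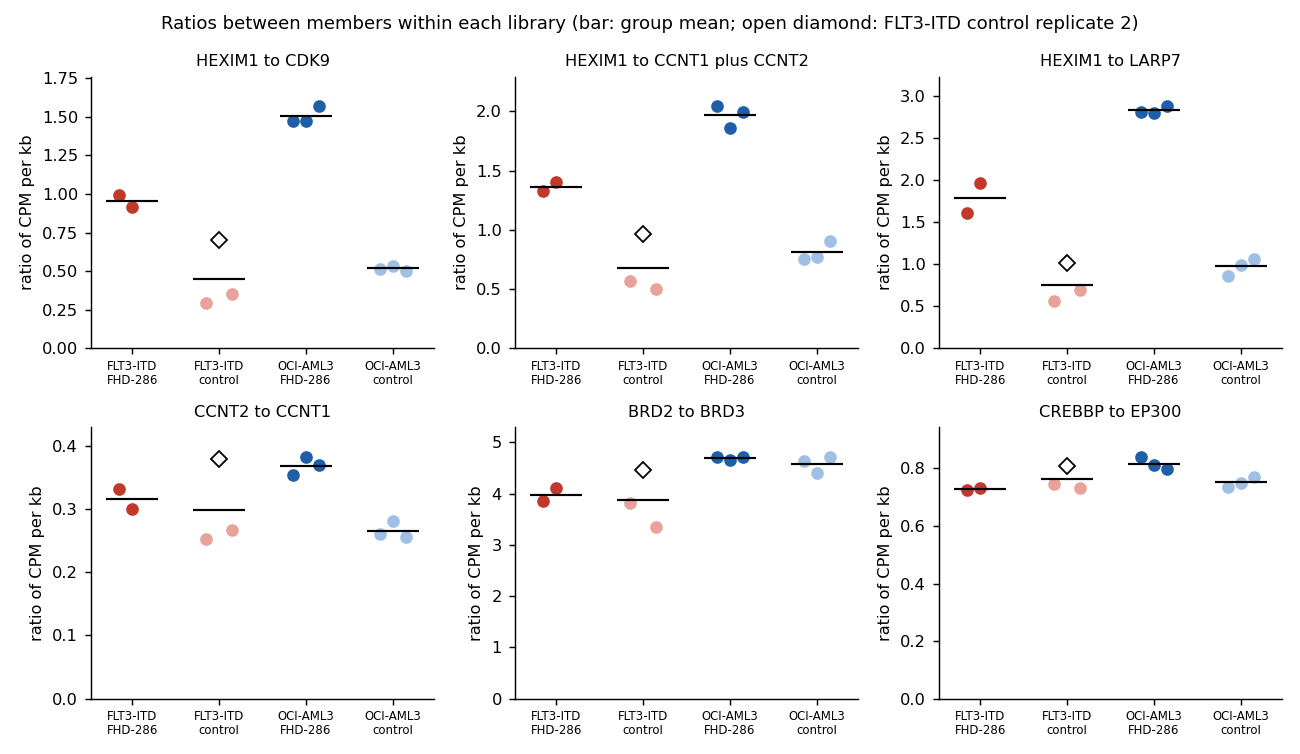
Ratios of CPM per kb between member genes in each library, by group of line and treatment, with points for libraries and bars for group means, and the library labelled replicate 2 of the OCI-AML3-FLT3-ITD control marked apart. The ratio of HEXIM1 to CDK9 lies at 0.915 to 0.991 in OCI-AML3-FLT3-ITD with FHD-286 against 0.290 to 0.705 in control, and at 1.47 to 1.57 in OCI-AML3 with FHD-286 against 0.501 to 0.536 in control.

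Genes that work beside the members were taken as 8 lists, and values after ± are SD over the libraries of a group. Their counts stand beside the 30.5% of all genes called in the FLT3-ITD line and 41.3% in OCI-AML3, and without the library that stood apart beside 49% in the FLT3-ITD line and 58.8% in OCI-AML3. Over all lists, 41 of 112 genes (36.6%) were called in the FLT3-ITD line and 65 (58%) in OCI-AML3. Of 8 tested genes of the 7SK particle and the other transcription cyclin kinases, 1 rose and 3 fell in OCI-AML3. In the FLT3-ITD line 0 of the 8 were called by edgeR, 2 had an unadjusted p below 0.05, and the Wald test of DESeq2 called 1 lower. MEPCE, which caps the 7SK RNA, was at 239 ± 6.85 CPM in OCI-AML3-FLT3-ITD with FHD-286 and 252 ± 39.7 CPM in control, and was not called there. It fell to 229 ± 2.96 CPM in OCI-AML3 with FHD-286, against 346 ± 32.1 CPM in control (log2 −0.59, SE 0.11, edgeR adjusted p = 0.0015). HEXIM2, the paralogue of HEXIM1, was higher in treated OCI-AML3 at log2 0.48 (SE 0.15, edgeR adjusted p = 0.024), at 1.99 CPM with FHD-286 and 1.43 CPM in control, and 50.3% of its exon length overlaps another gene. Without the library that stood apart, MEPCE was called lower in the FLT3-ITD line too, at −0.20, and in that fit the list had 1 gene lower in the FLT3-ITD line, and 1 higher and 6 lower in OCI-AML3.

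The super elongation complex carries P-TEFb to paused polymerase. Of 10 tested genes of this complex and its partners, 2 rose and 1 fell in the FLT3-ITD line, and 3 rose and 3 fell in OCI-AML3. AFF4, the scaffold of the complex, rose at log2 0.59 (SE 0.13, edgeR adjusted p = 0.0072) in the FLT3-ITD line and 0.71 (SE 0.12, adjusted p = 0.00090) in OCI-AML3. EAF2, a partner of the ELL elongation factors, fell to 7.01 ± 0.210 CPM in OCI-AML3-FLT3-ITD with FHD-286, against 31.3 ± 5.15 CPM in control. It fell to 5.58 ± 0.366 CPM in OCI-AML3 with FHD-286, against 26.7 ± 1.46 CPM in control. The 14 pausing and elongation factors had 3 higher and 0 lower in the FLT3-ITD line, and 2 higher and 5 lower in OCI-AML3. CTR9 and CDC73, subunits of the PAF1 complex, rose in both lines. CTR9 rose by log2 0.75 (SE 0.07) in the FLT3-ITD line and 0.41 (SE 0.06) in OCI-AML3, and CDC73 by 0.52 (SE 0.09) in the FLT3-ITD line and 0.57 (SE 0.08) in OCI-AML3.

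Among 18 other acetyltransferases and partners of CBP and p300, 4 rose and 4 fell in the FLT3-ITD line, and 7 rose and 6 fell in OCI-AML3. KAT2B, the acetyltransferase PCAF, rose to 53.0 ± 2.11 CPM in OCI-AML3-FLT3-ITD with FHD-286, against 14.1 ± 1.26 CPM in control, and to 44.0 ± 1.02 CPM in OCI-AML3 with FHD-286, against 8.68 ± 0.484 CPM in control. Its paralogue KAT2A fell by log2 0.32 in the FLT3-ITD line and by 0.47 in OCI-AML3 (edgeR adjusted p = 0.0098 in the FLT3-ITD line and 0.00027 in OCI-AML3), and 10.7% of its exon length overlaps another gene. NCOA1, a nuclear receptor coactivator that binds CBP and p300, rose at log2 0.95 (SE 0.12) in the FLT3-ITD line and 0.72 (SE 0.11) in OCI-AML3. Of 16 histone deacetylases, 4 rose and 2 fell in the FLT3-ITD line, and 5 rose and 3 fell in OCI-AML3. HDAC9 fell to 3.15 ± 0.911 CPM in OCI-AML3-FLT3-ITD with FHD-286, against 16.4 ± 3.59 CPM in control, and to 5.89 ± 0.378 CPM in OCI-AML3 with FHD-286, against 28.7 ± 1.36 CPM in control. SIRT1 rose at log2 0.52 (SE 0.09) in the FLT3-ITD line and 0.48 (SE 0.08) in OCI-AML3.

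Of 25 bromodomain genes outside the BET family and the BAF complex, 9 rose and 2 fell in the FLT3-ITD line, and 11 rose and 4 fell in OCI-AML3. The median log2 fold change of this list was 0.26 in the FLT3-ITD line, against −0.02 over all genes, and 0.27 in OCI-AML3, against 0.01. BRPF3, a scaffold of acetyltransferase complexes, rose at log2 0.65 (SE 0.09) in the FLT3-ITD line and 0.71 (SE 0.08) in OCI-AML3. TRIM28, a corepressor, was not called in the FLT3-ITD line at log2 −0.35 (edgeR adjusted p = 0.054) and fell in OCI-AML3 at −0.71 (adjusted p = 0.00045). The 16 Mediator genes had 3 higher and 2 lower in the FLT3-ITD line, and 3 higher and 4 lower in OCI-AML3, with CDK19, a kinase of Mediator, higher at log2 0.82 (SE 0.10) in the FLT3-ITD line and 0.84 (SE 0.09) in OCI-AML3. Without the library that stood apart, the bromodomain list had 16 higher and 4 lower in the FLT3-ITD line and 14 higher and 6 lower in OCI-AML3.

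All 5 genes taken as reported responders of blood cells to BET inhibitors were called in both lines, 1 higher and 4 lower, where 30.5% of all genes were called in the FLT3-ITD line and 41.3% in OCI-AML3. No BET inhibitor was used here, and likeness to the response to one was not tested. The list was taken without the direction reported for each gene, so these calls are no measure of agreement with that response. SERPINI1 rose to 5.34 ± 0.194 CPM in OCI-AML3-FLT3-ITD with FHD-286, against 0.806 ± 0.423 CPM in control, and to 4.79 ± 0.600 CPM in OCI-AML3 with FHD-286, against 0.394 ± 0.0878 CPM in control. MYC, the transcription factor, fell to 189 ± 16.0 CPM in OCI-AML3-FLT3-ITD with FHD-286, against 665 ± 83.7 CPM in control, and to 224 ± 7.47 CPM in OCI-AML3 with FHD-286, against 822 ± 45.5 CPM in control. The log2 fold changes of MYC were −1.82 (SE 0.11, edgeR adjusted p = 2.8e-06) in the FLT3-ITD line and −1.87 (SE 0.10, adjusted p = 4.6e-07) in OCI-AML3. The chemokine receptor CCR2 fell by log2 1.43 in the FLT3-ITD line and by 1.59 in OCI-AML3, and ZCCHC24 fell by 0.50 in the FLT3-ITD line and by 0.57 in OCI-AML3. CD180, a surface receptor of the Toll-like receptor family, had 0 counts in every treated library, against 23 to 112 counts in FLT3-ITD controls and 179 to 225 counts in OCI-AML3 controls. Against a floor of 3 counts per library it was at least 19.7-fold lower in treated FLT3-ITD cells, or 8.79-fold without control replicate 2, and at least 88.2-fold lower in treated OCI-AML3 cells.

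**Figure D4:**
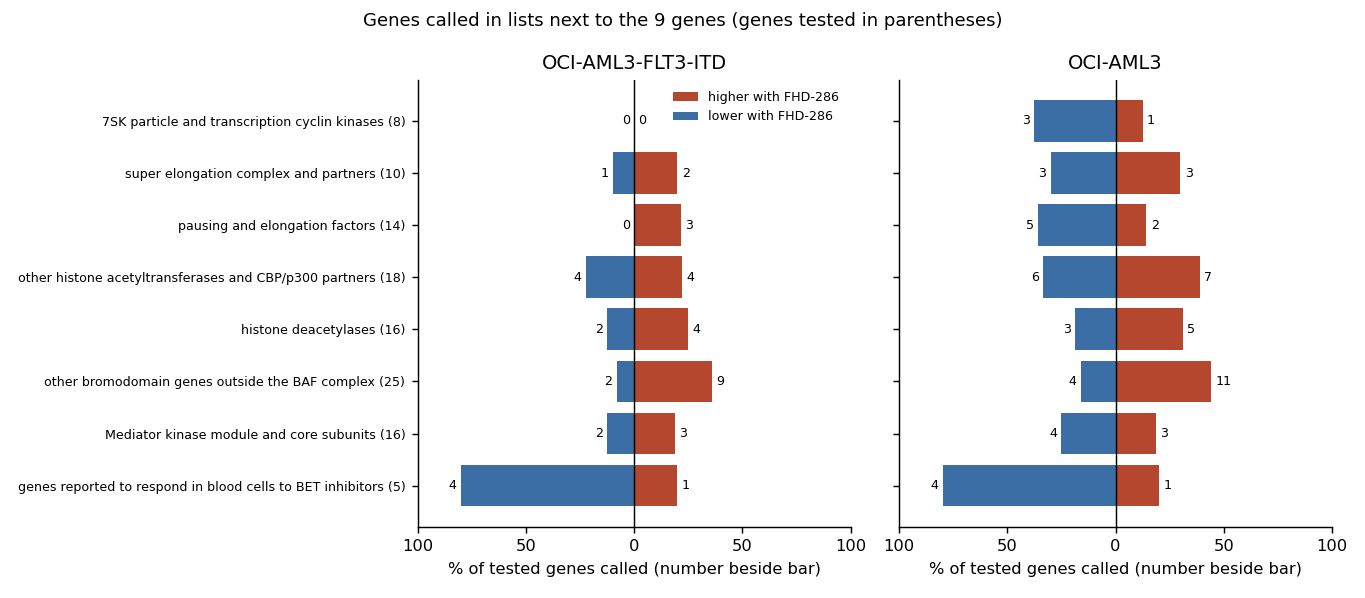
Percent of the tested genes of each of the 8 lists that were called higher (to the right of 0) and lower (to the left of 0) with FHD-286, in OCI-AML3-FLT3-ITD and in OCI-AML3, with the number of genes beside each bar. The list of other bromodomain genes had 9 higher and 2 lower of 25 in the FLT3-ITD line and 11 higher and 4 lower in OCI-AML3.

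The genes whose log2 CPM ran most like that of HEXIM1 over the 11 libraries, among 10335 genes whose mean log2 CPM was 2 or more, were CYTH1 (Pearson r 0.995), MB21D2 (0.994) and CCND1 (0.994). For CCNT2 they were UHMK1 (0.980), TRIP11 (0.979) and PIK3C2A (0.975). Without the library that stood apart, they were ARID3B, CYTH1 and UBE2H (0.996 to 0.997) for HEXIM1 and UHMK1, LNPEP and TRIP11 (0.980 to 0.993) for CCNT2. The points share the groups and the scaling of the same libraries, and these values describe likeness over those libraries.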

How the data were processed

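The authors deposited raw gene counts for 11 libraries, as whole numbers for 58037 Ensembl identifiers. The submitters' processing notes name STAR and hg38, and the counting program, its strand setting and its annotation are not given in the sources used here. Symbols, coordinates and exon lengths came from GENCODE 29 on GRCh38, which held 57433 identifiers, and upstream sequences from RefSeq (GRCh38.p14), which held all 9 members. Genes were kept with filterByExpr (minimum count 10, minimum total 15) and tested with edgeR 4.0.16 (R 4.3.3): TMM scaling, quasi-likelihood test, 1 mean for each of 4 groups, 7 residual degrees of freedom, two-sided, Benjamini-Hochberg over 18908 genes, threshold 0.05. SE was taken as the size of the log2 fold change over the root of its F statistic. CPM use the same scaling, and CPM per kb divide by merged exon length. The fit was tested on simulated counts, where some of the changed genes were missed in every comparison, so a gene not called may still have changed. The members and lists were chosen with earlier results of these data known, so their counts are descriptions. All 9 members are named, and of each list up to 3 called genes with the smallest p, 1 of the minority direction, and every gene of a list of 5, with values in both lines. Alternatives were other scalings, filters, a replicate block, DESeq2 1.42.0 (Wald test), fits restricted to the groups compared, and leaving out each library.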

Additional observations from a re-analysis of the deposited data

Results flagged for a closer look

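Of the 112 tested genes of the neighbouring lists, 4 (3.57%) were called by edgeR's quasi-likelihood test for a difference of the FHD-286 effect between the lines (FLT3-ITD minus OCI-AML3, log2), where 3.36% of all genes were called. CITED4, a partner of CBP and p300, differed by −1.95 (SE 0.34, adjusted p = 0.014), at 7.51 ± 3.01 CPM in OCI-AML3-FLT3-ITD with FHD-286 and 58.5 ± 17 CPM in its control, and at 33.1 ± 3.06 CPM in OCI-AML3 with FHD-286 and 66.8 ± 5.62 CPM in its control. BRD8, a bromodomain protein of an acetyltransferase complex, differed by 0.44 (SE 0.09, edgeR adjusted p = 0.031), with an effect of 0.71 in the FLT3-ITD line and 0.28 in OCI-AML3. HAT1, which acetylates new histone H4, differed by 0.88 (SE 0.20, edgeR adjusted p = 0.041), at 0.09 and not called in the FLT3-ITD line and at −0.79 and called in OCI-AML3. ATAD2, a bromodomain ATPase, differed by 0.58 (SE 0.11, edgeR adjusted p = 0.020), with a rise of 0.30 in the FLT3-ITD line and a fall of 0.29 in OCI-AML3, both called. Without the library labelled replicate 2 of the OCI-AML3-FLT3-ITD control the differences were −1.68 for CITED4, 0.39 for BRD8, 0.71 for HAT1 and 0.54 for ATAD2 and all 4 were called, at an edgeR adjusted p of up to 0.0031. That fit called 24 of the 112 list genes (21.4%), where 17% of all genes were called.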

How the results depend on the processing

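The rise of HEXIM1 was called in both lines under all 8 alternatives other than leaving out a library, and without each of the 11 libraries. Counts over all genes depended on the fit and on single libraries, and the cause was not tested. A fit of only the groups compared called 5677 genes higher and 8 members in OCI-AML3, 730 higher, 888 lower and 1 member in the FLT3-ITD line, 1078 higher and 658 lower between controls, and 4877 higher, 4704 lower and 4 members between treated cells; it cannot be made for the difference between lines, which needs all groups. For that difference, DESeq2's Wald test called 812 higher and 655 lower, no filter 401 lower, and the replicate block 203 higher and 146 lower. Same-numbered libraries correlated at −0.0288 to 0.122 over 15 pairs, with 2 above 0.1. Libraries with different numbers correlated at −0.203 to 0.192 over 30 pairs, with 1 above 0.1. The ranges overlapped, and the numbers were not taken as pairs. Under that block the members called in OCI-AML3 were 5, with EP300 added, where 39.7% of all genes were called. Between controls, library totals called 1648 genes lower, and members called were 1 with no filter, where 14.4% of all genes were called, and 2 with DESeq2's Wald test. Between treated cells, library totals called 0 members.

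Members whose direction turned missed the threshold in both settings. In 982 of the results for named list genes the direction and call held, 59 lost the call and none turned. CCNT1 in OCI-AML3 had log2 values of 0.039 with upper-quartile scaling, 0.12 by library totals, 0.0085 with no filter and 0.0083 with a stricter filter. LARP7 was at 0.092 in the FLT3-ITD line and at 0.020 between controls by library totals. EP300 differed between lines by 0.0047 under the replicate block. CCNT2 between controls was at 0.030 (upper quartile), 0.056 (library totals), 0.019 (stricter filter) and 0.011 (only the groups compared). Between treated cells BRD2 was at 0.014 by library totals, and CCNT1 at −0.010 with DESeq2 size factors or its Wald test, −0.028 with upper-quartile scaling and −0.023 with no filter.

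Without each library in turn, genes called higher and lower ran from 2872 to 5412 and 3107 to 5561 in OCI-AML3, 1530 to 4619 and 1378 to 4521 in the FLT3-ITD line, 45 to 1797 and 60 to 1380 for the difference, 1542 to 4490 and 1372 to 4733 between controls, and 1239 to 4509 and 670 to 4247 between treated cells. Members called ran from 2 to 8 in OCI-AML3, 2 to 6 in the FLT3-ITD line, 0 to 2 between controls and 0 to 2 between treated cells, and stayed 0 for the difference. Log2 values that changed sign ran from −0.073 to 0.18 for CDK9 and −0.14 to 0.10 for LARP7 in the FLT3-ITD line. For the difference they ran from −0.026 to 0.30 for BRD3, −0.28 to 0.13 for HEXIM1 and −0.17 to 0.13 for EP300. Between controls they ran from −0.087 to 0.23 for BRD3, −0.13 to 0.079 for CCNT2, −0.094 to 0.21 for EP300 and −0.12 to 0.25 for CREBBP. Between treated cells they ran from −0.0034 to 0.15 for CDK9, −0.019 to 0.010 for CCNT1, −0.037 to 0.21 for LARP7 and −0.0095 to 0.059 for EP300.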
